A study of Mus musculus with 2 samples.

Results

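The genes described here are 38 genes of cell division, 15 that act in S phase and 23 that act in mitosis, out of 47069 genes counted in bulk RNA-seq of primary mouse pituitary cells. They were chosen by symbol, as widely used markers of dividing cells, and all 38 were found by their Ensembl identifiers on the mouse assembly GRCm38. The question was whether the S-phase genes and the mitotic genes differed in the same way between cells stored in RNA-Best, a buffer that stabilizes RNA in intact cells, and cells stored in RNAlater, an RNA stabilizer that does not keep the cells whole and served as the reference.

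Both samples came from randomly cycling female C57BL/6 mice aged 10 to 12 weeks. Whole pituitaries were acutely dissociated with collagenase and pancreatine, and each sample pooled 500000 to 700000 cells of 5 pituitaries, so no value belongs to 1 animal. The labels name both plating into M199 medium and storage at once. The paper describes plating for the samples of its single-cell assays. For bulk RNA-seq it describes acute dissociation and storage without delay in either stabilizer. No time in medium is given. Each stabilizer had 1 library, with 53915047 counts in genes for RNA-Best and 44917492 for RNAlater, so the differences below were not checked by replicates and carry no p-value. Levels are counts scaled by each library's total (CPM), with exact 95% Poisson intervals, and differences are log2 ratios of RNA-Best to RNAlater after adding 0.5 CPM. The interval of a ratio is an exact 95% binomial interval of the counts without the added 0.5 CPM. All intervals cover counting error only, and the stabilizer, the pooled animals and the library preparation cannot be told apart. The hormone genes that define the gland were present in both libraries, and ranged from 31.6 CPM of Tshb (thyrotropin) in RNAlater to 235654 CPM of Prl (prolactin) in RNA-Best.

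A cell that divides first copies its DNA in S phase and then separates the copies in mitosis. S-phase genes encode the helicase that opens the DNA, the clamp that holds the polymerase and the enzymes that make deoxynucleotides, and many are switched on by E2F factors. Mitotic genes encode cyclins, kinases, centromere proteins and spindle motors, are transcribed later in the cycle, and often carry in their promoters a pair of elements named CHR and CCAAT, through which they are held off in resting cells and switched on before division. Most cells of the adult pituitary are hormone-secreting cells at rest, and only a small fraction cycles at a time.

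The promoters of the 2 lists differed in the short motifs they held. A window of 300 bases, from 250 before to 50 after the transcription start in RefSeq on GRCm38.p6, was found for 13 of the 15 S-phase genes and 19 of the 23 mitotic genes. Aurkb, Tpx2, Gins2, Kif20a, Ccna2 and Mcm4 had none. The CHR element (TTTGAA) was present on either strand in 14 of 19 mitotic promoters (73.7%) and in 1 of 13 S-phase promoters (7.69%), against 20.2% of 27025 promoters of all genes. The CCAAT box (CCAAT) was present in 17 mitotic promoters (89.5%) and 8 S-phase promoters (61.5%), against 41.1% of all promoters. The E2F motif was searched in 4 spellings, with TTCCCGC as the first, TTCGCGC as the second, TTGGCGC as the third and TTGCCGC as the last. At least 1 of them was present in 3 mitotic promoters (15.8%) and 8 S-phase promoters (61.5%), against 10.9% of all. Both a CHR element and a CCAAT box stood in 14 mitotic promoters and 1 S-phase promoter, against 7.97% of all. These are matches of letters, which do not show that a factor binds there.

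Of these promoters 6 are printed, 3 from each list, because they show both arrangements and overlap no annotated exon. Each is the 150 bases before the RefSeq start, 5′ to 3′ on the strand of the gene (GRCm38.p6). Capitals mark the CHR element, the CCAAT box and the E2F motifs in either direction, so that CCAAT can appear as ATTGG and TTTGAA as TTCAAA, and neighboring motifs can overlap. The first 3 belong to Mki67 (chr7:135716380-135716529, minus strand), Top2a (chr11:99024190-99024339, minus strand) and Kif11 (chr19:37376232-37376381, plus strand), which encode the proliferation antigen Ki-67, a topoisomerase that untangles chromosomes and a spindle motor. The other 3 belong to Mcm5 (chr8:75109359-75109508, plus strand), Mcm6 (chr1:128359706-128359855, minus strand) and Rrm1 (chr7:102441545-102441694, plus strand), which encode helicase subunits and the large subunit of ribonucleotide reductase.
Mki67: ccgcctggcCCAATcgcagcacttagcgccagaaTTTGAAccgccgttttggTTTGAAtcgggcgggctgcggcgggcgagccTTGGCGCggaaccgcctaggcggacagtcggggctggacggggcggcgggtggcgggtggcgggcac
Top2a: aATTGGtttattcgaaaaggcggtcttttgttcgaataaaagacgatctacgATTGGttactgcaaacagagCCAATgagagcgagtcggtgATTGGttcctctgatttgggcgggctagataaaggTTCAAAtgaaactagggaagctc
Kif11: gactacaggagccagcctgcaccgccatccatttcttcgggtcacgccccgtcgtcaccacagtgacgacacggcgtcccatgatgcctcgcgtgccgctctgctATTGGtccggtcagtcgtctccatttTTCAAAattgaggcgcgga
Mcm5: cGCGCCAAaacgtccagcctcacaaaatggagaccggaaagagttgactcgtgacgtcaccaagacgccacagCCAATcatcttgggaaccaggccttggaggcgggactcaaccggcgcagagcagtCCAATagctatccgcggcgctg
Mcm6: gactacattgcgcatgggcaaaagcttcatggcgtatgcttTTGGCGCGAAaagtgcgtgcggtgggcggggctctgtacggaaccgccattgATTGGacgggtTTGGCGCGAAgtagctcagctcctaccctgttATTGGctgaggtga
Rrm1: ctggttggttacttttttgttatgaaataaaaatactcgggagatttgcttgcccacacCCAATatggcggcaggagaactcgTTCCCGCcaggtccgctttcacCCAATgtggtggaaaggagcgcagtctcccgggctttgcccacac
In the mitotic stretches a CHR element stands with at least 1 CCAAT box, with an E2F motif in that of Mki67 as well, and in the S-phase stretches at least 1 E2F motif is present and no CHR element.

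Most cell division genes had a lower level in RNA-Best, and so did most genes of the whole library. Of the 38 genes, 30 (78.9%; 23 to 24 under other scalings) had a lower CPM in RNA-Best and 8 a higher one, against 67.0% that were lower among the 16504 genes averaging 1 CPM or more (50.3% to 55.2% under the other scalings). With 0.5 CPM added, Mki67, Cenpf and Cenpe were at least 2-fold lower in RNA-Best, 3 of 38 against 4.99% of all genes. Top2a, at a log2 ratio of -0.99, fell just short of 2-fold. With 0.1 CPM added Top2a was past 2-fold too, at -1.04, and with 1 CPM added only Mki67 was, at -1.08. With TMM or DESeq2 factors and 0.5 CPM added, none of these 4 reached 2-fold, with Mki67 at -0.97 and -0.96. With the total without Prl and Gh and 0.5 CPM added, only Mki67 did, at -1.03. These scalings were not combined with another added value, so the loss of 2-fold depends on both choices. No member was at least 2-fold higher, against 0.273% of all genes. The counting interval lay wholly below 0 for 19 members, against 51.2% of all genes, and wholly above 0 for 2 members, Tyms and Cenpa, against 20.2%. For the other 17 it included 0. Fewer counts widen the interval, and the median level was 4.29 CPM over the members against 17.5 CPM over all genes. Shares of intervals here and below are thus not compared at equal depth. The median log2 ratio was -0.27 over the 38 members and -0.18 over all genes, and 22 members lay below the all-gene median and 16 above it. In bulk RNA, fewer cells in division and less RNA per dividing cell cannot be told apart.

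The direction of 31 members held under all 4 scalings tried, 23 lower and 8 higher in RNA-Best. The other 7, Aurka, Nusap1, Cdk1, Ccnb1, Mcm5, Pcna and Mcm2, were slightly lower when scaled by the total and slightly higher under at least 1 other scaling, and no direction is given below for any of them by name. Those scalings moved the median of all genes by 0.12 to 0.17 on the log2 scale, so members are also given relative to that median. Counting intervals are for scaling by the total, and so is every call beyond counting error. A shift of 0.17 would carry upper ends such as those of Kif11, Prc1, Cdc6 and Tk1 (-0.09 to -0.06) past 0. It about equals that of Ccna2 (-0.17). It would also carry lower ends such as those of Pcna (-0.14) and Mcm7 (-0.03) past 0.

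**Figure D1:**
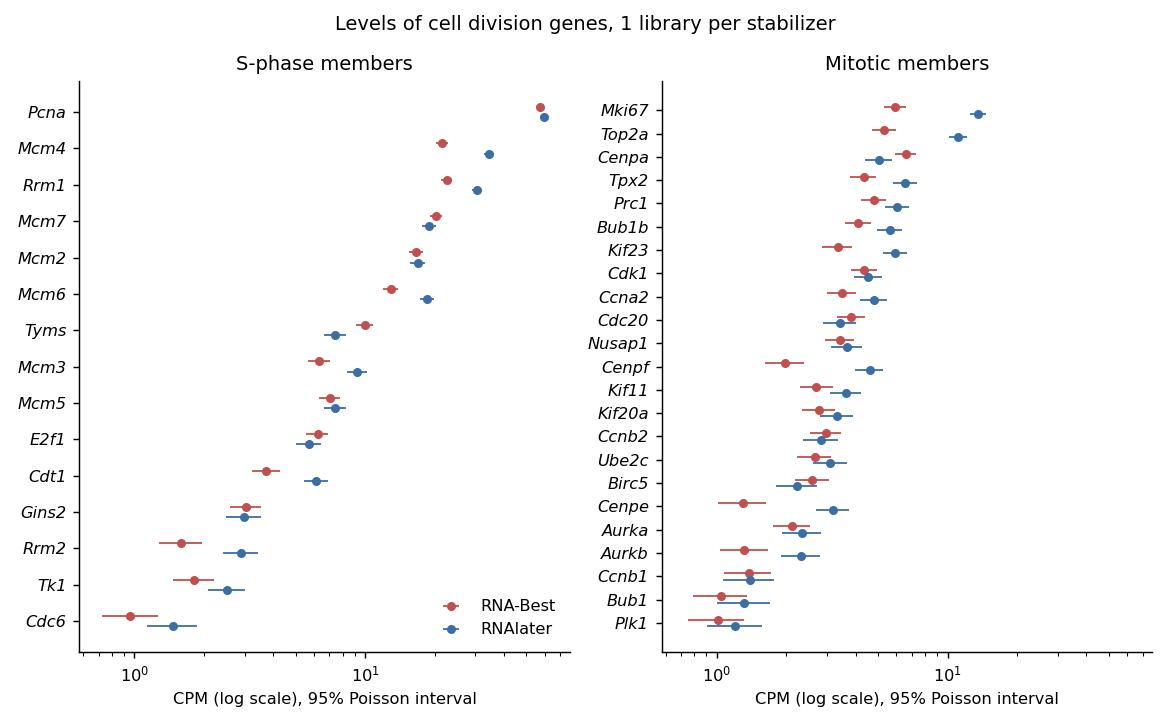
CPM of each S-phase and mitotic gene in the RNA-Best and RNAlater libraries, on a log axis, with exact 95% Poisson intervals as bars. Levels run from 0.955 CPM (Cdc6 in RNA-Best) to 59.5 CPM (Pcna in RNAlater), and the points of the 2 libraries lie farthest apart for Mki67, Cenpf, Cenpe and Top2a.

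The 6 subunits of the MCM helicase, which unwinds DNA at the replication fork as a ring that holds 1 of each, did not move as 1 group. Mcm4 was at 21.5 CPM (20.3 to 22.8) with RNA-Best and 34.4 CPM (32.7 to 36.1) with RNAlater (log2 ratio -0.67, -0.79 to -0.57). Mcm3 was at 6.31 and 9.22 CPM (log2 ratio -0.51, -0.76 to -0.34), and Mcm6 at 12.9 and 18.5 CPM (log2 ratio -0.50, -0.66 to -0.37). These 3 of the 6 were lower in RNA-Best by more than the counting error, a share near the 51.2% of all genes. Mcm7 was at 20.2 and 18.9 CPM (0.10, -0.03 to 0.23), Mcm2 at 16.6 and 16.9 CPM (-0.03, -0.17 to 0.12) and Mcm5 at 7.02 and 7.41 CPM (-0.07, -0.30 to 0.14), and the interval of each included 0. The intervals of Mcm3, Mcm4 and Mcm6 did not overlap those of Mcm2, Mcm5 and Mcm7. This division was made after the values were seen, so it does not show separate groups. The longest transcripts of the 6 genes have 2962 to 4355 bases. In the length classes that this range spans, the median log2 ratio of all genes went from -0.09 to -0.40. The part of length in the split was not tested. Counts of Mcm3 and Mcm7 were whole numbers and those of the other 4 held fractions. The summed counts of all 6 gave a log2 ratio of -0.32 (-0.38 to -0.26). Exons of Mcm7 (chr5) share positions with those of Cops6 and Ap4m1 on the opposite strand, and the strand setting of the counting is not given in the sources used here.

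Among the genes that license, load or control replication, Cdt1 and Cdc6 were lower beyond counting error when scaled by the total. The intervals of Gins2, E2f1 and Pcna included 0, and 51.2% of all genes had intervals below 0. Cdt1, which loads the helicase onto origins, was at 3.73 CPM with RNA-Best and 6.14 CPM with RNAlater (log2 ratio -0.65, -0.99 to -0.45). Cdc6, its partner in loading, was at 0.955 and 1.47 CPM (log2 ratio -0.44, -1.16 to -0.06). Gins2, a subunit of the complex that activates the helicase, was at 3.04 and 2.98 CPM (0.02, -0.31 to 0.37). E2f1, a transcription factor of the G1 to S transition, was at 6.22 and 5.70 CPM (0.12, -0.11 to 0.37). Pcna, the sliding clamp of the polymerase, was the most abundant member with 57.1 CPM (55.1 to 59.1) and 59.5 CPM (57.3 to 61.8), a log2 ratio of -0.06 (-0.14 to 0.01). Pcna alone held 29.8% of the S-phase counts in RNA-Best and 26.5% in RNAlater. Gins2 shares exon positions on the opposite strand with Gse1, with 596 counts in the RNA-Best library and 1368 in the other.

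The enzymes that supply deoxynucleotides spanned the whole range of the S-phase genes. Rrm2 (chr12:24708241-24714146), the regulated subunit of ribonucleotide reductase, was at 1.60 CPM (1.28 to 1.97) with RNA-Best and 2.91 CPM (2.42 to 3.44) with RNAlater, the lowest S-phase log2 ratio at -0.70 (-1.27 to -0.46). Rrm1, the large subunit, was at 22.5 and 30.5 CPM (log2 ratio -0.43, -0.55 to -0.33). Tk1, the thymidine salvage kinase, was at 1.81 and 2.52 CPM (log2 ratio -0.38, -0.87 to -0.07). All 3 were lower in RNA-Best, and their intervals overlapped. Tyms (chr5:30058202-30073617), which makes thymidylate anew, was higher in RNA-Best, at 9.97 CPM against 7.42 CPM, the highest log2 ratio of any member at 0.40 (0.22 to 0.62). Tyms and Tk1 make the same nucleotide by different routes, and their intervals did not overlap.

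Sorted by log2 ratio, 8 S-phase genes lay at or below -0.38 and 7 at or above -0.07, with none between. This gap was the widest step between neighboring values and was picked after the values were seen, so it does not show separate groups. All 8 of the lower set had intervals below 0, and 8 of 15 is near the 51.2% of all genes. Of the 15, 11 were lower in RNA-Best and 4 higher when scaled by the total, and 8 and 7 under each of the 3 other scalings. The list median of -0.38, at Tk1, sits at the edge of this gap, so that a small change in the set moves it far.

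**Figure D2:**
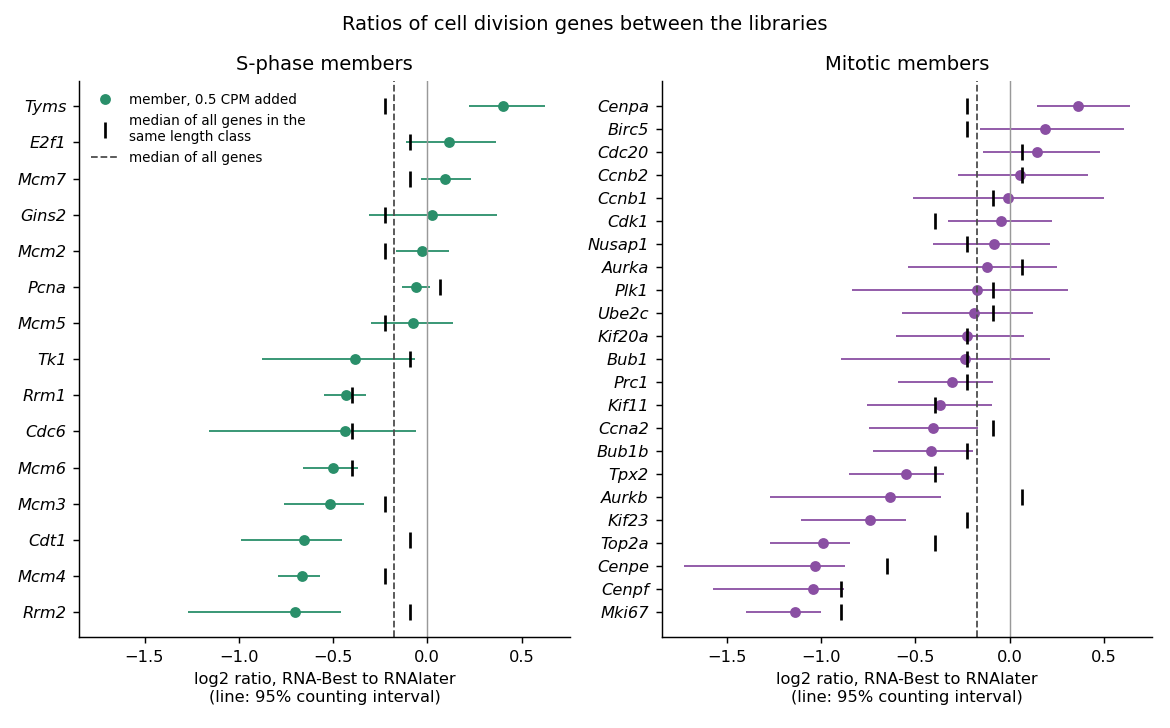
Log2 ratio of RNA-Best to RNAlater for each member with its 95% counting interval, S-phase and mitotic genes in separate panels. The dashed line is the median of all genes (-0.18) and the black tick beside each gene the median of all genes in the same class of transcript length, from which Mcm4, Cdt1, Rrm2, Aurkb, Top2a and Kif23 lie well below and Cenpa and Tyms well above.

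A pair of genes often used to count dividing cells stood at or near the lower end of the mitotic list. Mki67 (ENSMUSG00000031004.7, chr7:135689784-135716361), which encodes the Ki-67 protein that coats mitotic chromosomes, was at 5.91 CPM (5.29 to 6.60) with RNA-Best and 13.6 CPM (12.5 to 14.7) with RNAlater. With 0.5 CPM added, its level was 2.20-fold higher in RNAlater (log2 ratio -1.14, -1.40 to -1.0), the widest difference among the 38 members. With 0.1 CPM added, that of Cenpe was wider, at -1.23 against -1.19 for Mki67. Top2a (chr11:98992943-99024189) was at 5.32 CPM (4.73 to 5.98) with RNA-Best and 11.1 CPM (10.1 to 12.1) with RNAlater (log2 ratio -0.99, -1.27 to -0.85). In both genes the intervals of the levels were far apart between the libraries. Counts of Top2a were whole numbers in both libraries, whereas those of Mki67 held fractions, meaning that some reads were counted in part. How such reads were divided is not given.

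Scaled by the total, the kinase that drives mitosis and its cyclins stayed within counting error, except for Ccna2. Cdk1 (chr10:69335146-69352938), the mitotic kinase, was at 4.36 CPM (3.82 to 4.95) with RNA-Best and 4.52 CPM (3.92 to 5.19) with RNAlater (log2 ratio -0.05, -0.33 to 0.23). Ccnb1 was at 1.37 and 1.39 CPM (-0.01, -0.51 to 0.50) and Ccnb2 at 2.97 and 2.83 CPM (0.06, -0.28 to 0.42), both B-type cyclins that partner Cdk1. Ccna2, a cyclin of S phase and entry into mitosis, was at 3.49 and 4.79 CPM (log2 ratio -0.41, -0.75 to -0.17). Its exons share positions with those of Exosc9 on the opposite strand, which went the other way with 1224 counts in the RNA-Best library and 864 in the other. The interval of Cdk1 did not overlap that of Mki67 or Top2a.

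Genes that end mitosis through the anaphase-promoting complex were also within counting error when scaled by the total. Cdc20, an activator of the complex, was at 3.81 and 3.41 CPM (0.14, -0.14 to 0.48). Ube2c, its ubiquitin-conjugating enzyme, was at 2.65 and 3.09 CPM (-0.19, -0.57 to 0.12). Both had intervals that included 0.

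Among the kinases and checkpoint genes, Aurkb and Bub1b were lower in RNA-Best beyond counting error, as were 51.2% of all genes. The intervals of Birc5, Bub1, Plk1 and Aurka included 0. Aurkb (chr11:69045647-69051664), the kinase of the chromosomal passenger complex, was at 1.31 CPM (1.03 to 1.66) with RNA-Best and 2.32 CPM (1.89 to 2.81) with RNAlater (log2 ratio -0.64, -1.27 to -0.36). Birc5 (survivin), a subunit of the same complex, was at 2.59 and 2.22 CPM (log2 ratio 0.19, -0.16 to 0.61). The intervals of these partners did not overlap. Bub1b, a spindle checkpoint protein, was at 4.10 and 5.63 CPM (log2 ratio -0.42, -0.73 to -0.19). Its relative Bub1, a checkpoint kinase, was at 1.04 and 1.31 CPM (-0.24, -0.89 to 0.21). Plk1, a kinase of centrosomes and kinetochores, was at 1.01 and 1.20 CPM (-0.17, -0.83 to 0.31) and Aurka, the centrosomal Aurora kinase, at 2.11 and 2.34 CPM (-0.12, -0.54 to 0.25). With 54 to 114 counts a library, Bub1, Plk1 and Aurka had intervals too wide to tell a moderate difference from none.

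The 3 centromere genes went in opposite directions. Cenpf (chr1:189640606-189688086), a large kinetochore protein, was at 1.97 CPM (1.61 to 2.38) with RNA-Best and 4.59 CPM (3.98 to 5.26) with RNAlater (log2 ratio -1.05, -1.57 to -0.88). Cenpe (chr3:135212537-135273611), a kinetochore motor, was at 1.30 CPM (1.01 to 1.64) and 3.18 CPM (2.68 to 3.75), a log2 ratio of -1.03 (-1.73 to -0.87). Cenpa (chr5:30666777-30674830), the histone H3 variant that marks the centromere, was higher in RNA-Best, at 6.60 CPM (5.93 to 7.33) against 5.03 CPM (4.40 to 5.73), a log2 ratio of 0.36 (0.15 to 0.64). Cenpf and Cenpe have long transcripts of 11130 and 7910 bases, and Cenpa has one of 3806 bases.

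The spindle genes were mostly lower in RNA-Best. Kif23 (chr9:61915905-61946774), a motor of the central spindle, was at 3.34 CPM (2.87 to 3.86) with RNA-Best and 5.92 CPM (5.23 to 6.68) with RNAlater (log2 ratio -0.74, -1.11 to -0.55). Tpx2, a spindle assembly factor that activates Aurora A, was at 4.32 and 6.55 CPM (log2 ratio -0.55, -0.85 to -0.35). Kif11, the motor that pushes the spindle poles apart, was at 2.70 and 3.63 CPM (-0.37, -0.75 to -0.09). Prc1, which bundles microtubules at the midzone, was at 4.79 and 6.04 CPM (-0.31, -0.59 to -0.09). Scaled by the total, these 4 were lower beyond counting error, as were 51.2% of all genes. Kif20a, a motor of cytokinesis, was at 2.76 and 3.32 CPM (-0.23, -0.60 to 0.07) and Nusap1, a spindle microtubule binder, at 3.41 and 3.65 CPM (-0.09, -0.41 to 0.22), both with intervals that included 0. Kif20a shares exon positions with Cdc23 on the opposite strand, which had 2060 and 1846 counts against 149 of Kif20a in each library.

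The S-phase and mitotic lists could be ordered either way. By the median, the S-phase genes were lower in RNA-Best (-0.38) than the mitotic genes (-0.24), a mitotic minus S-phase difference of 0.15. By summed counts the mitotic genes were lower, with a log2 ratio of -0.47 (-0.53 to -0.41; 73.2 CPM with RNA-Best and 102 CPM with RNAlater) against -0.23 (-0.27 to -0.19; 192 and 224 CPM) for the S-phase genes. Without Pcna the S-phase sum was at -0.30 (-0.34 to -0.25). The difference of medians also changed sign, to -0.48, among the 15 members averaging 5 CPM or more. The shares lower in RNA-Best were 11 of 15 S-phase genes (73.3%) and 19 of 23 mitotic genes (82.6%), against 67.0% of all genes. With TMM or DESeq2 factors 8 of 15 (53.3%) and 15 of 23 (65.2%) were lower, against 51.3% and 50.3% of all genes. With the total without Prl and Gh 8 and 16 were, against 55.2% of all genes. Intervals wholly below 0 were found for 8 of 15 S-phase and 11 of 23 mitotic genes, near the 51.2% of all genes. Their median levels were 7.76 and 3.28 CPM, against 17.5 CPM over all genes, so these shares are not at equal depth.

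The mitotic share of all counts of members does not depend on how the libraries are scaled. It was 27.7% in RNA-Best (3949 of 14274 counts, 26.9% to 28.4% by the exact Clopper-Pearson method at 95%) and 31.2% in RNAlater (4566 of 14648 counts, 30.4% to 31.9%). The intervals did not overlap. The gap lay mostly in 4 mitotic genes, set apart after the values were seen. Taking out the lowest ratios narrows the gap whatever the length, so the part of length was not tested. Mki67, Cenpf, Cenpe and Top2a had the 4 lowest mitotic log2 ratios and are the mitotic genes with transcripts over 5 kb. They had a summed log2 ratio of -1.16 (-1.29 to -1.04). The 19 mitotic genes up to 5 kb had one of -0.24 (-0.31 to -0.16), and the 14 S-phase genes up to 5 kb one of -0.20 (-0.24 to -0.16), with intervals that overlapped. Over members up to 5 kb, a set chosen after the values were seen, the mitotic share was 25.8% (25.0% to 26.6%) in RNA-Best and 26.3% (25.5% to 27.1%) in RNAlater, and those intervals overlapped.

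Transcript length moved with the ratio over the whole library. The median log2 ratio of all genes was 0.28 for transcripts up to 1 kb, -0.09 from 2 to 3 kb, -0.22 from 3 to 4 kb, -0.40 from 4 to 6 kb, -0.65 from 6 to 10 kb and -0.90 over 10 kb. Of the 373 genes over 10 kb, 42.4% were at least 2-fold lower in RNA-Best. Length here is that of the longest annotated transcript, which may not be the one expressed. Spearman's rho of length and log2 ratio was -0.64 over 16443 genes, -0.56 over the 23 mitotic genes and 0.05 over the 15 S-phase genes, as a description of genes that share both libraries. Over all members it was -0.38, and -0.10 over those up to 5 kb. With the median over each gene's transcripts in place of the longest, rho was -0.43 over all genes, -0.04 over the mitotic genes and 0.07 over all members, so the relation among members depends on which length is used.

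Set against other genes of their own length, the members were spread on both sides. A LOWESS trend of the log2 ratio on length left 22 of 38 members below it, against 48.9% of all genes. On the log2 scale, Mki67 lay 0.33 below the trend and Cenpf 0.19 below it, against plain log2 ratios of -1.14 and -1.05. Rrm2 lay 0.65 below the trend, Aurkb 0.62, Top2a 0.53, Cdt1 0.53, Kif23 0.51 and Mcm4 0.41. These 6 genes had transcripts of 1950 to 5221 bases, and they were the members farthest below it. Farthest above it were Tyms (0.68), Cenpa (0.64), Birc5 (0.40), Gins2 (0.31) and Cdk1 (0.30). The trend uses the longest transcript. For members on both sides the median annotated length is much shorter, as for Tyms (3884 and 663 bases) and Top2a (5221 and 803 bases). Relative to the trend the S-phase median was -0.02 and the mitotic median -0.11, the reverse of the order of the plain medians. Kif11 and Rrm1, which were lower in RNA-Best by CPM, lay 0.05 and 0.06 above the trend.

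**Figure D3:**
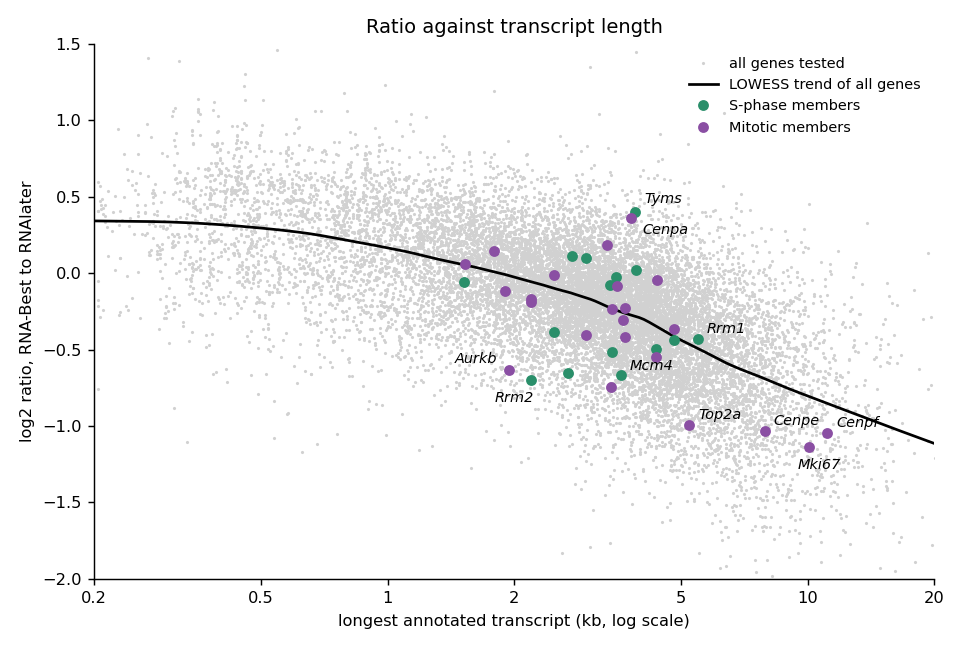
Log2 ratio of RNA-Best to RNAlater against the length of the longest transcript in kb (log axis), for all genes tested in gray, S-phase and mitotic members in color, and the LOWESS trend as a line; genes outside the axes are not drawn. The trend falls with length, the 4 mitotic genes over 5 kb lie below it at the lower right, and Rrm2 and Aurkb lie below it among short transcripts.

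Levels of different genes were compared as CPM per kb of the longest transcript. On that scale Pcna was far above every other member, at 37.6 CPM per kb in RNA-Best and 39.2 (37.7 to 40.7) in RNAlater. The median was 2.26 CPM per kb in RNA-Best and 2.28 in RNAlater over the S-phase genes, and 0.983 and 1.23 over the mitotic genes. Helicase genes led the other members, and their order differed between the libraries. In RNA-Best, Mcm7 at 6.83 CPM per kb (6.43 to 7.24) stood above Mcm4 at 5.98 (5.64 to 6.34), and Mcm2 followed at 4.75 (4.44 to 5.07). In RNAlater, Mcm4 at 9.58 (9.11 to 10.1) stood above Mcm7 at 6.37 (5.95 to 6.82), followed by Rrm1 at 5.57 (5.28 to 5.88) and Mcm2 at 4.84 (4.50 to 5.19). The intervals of these neighbors did not overlap. Among mitotic genes, Cdc20 at 2.13 and Ccnb2 at 1.94 CPM per kb had the highest levels in RNA-Best, with overlapping intervals. In RNAlater, Top2a at 2.12 CPM per kb came first and overlapped Cdc20 at 1.90 and Ccnb2 at 1.85. Cenpe and Cenpf were the lowest mitotic genes in RNA-Best, at 0.165 and 0.177 CPM per kb.

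The other replication genes, a list of 31 of which 29 reached a mean of 1 CPM (Fen1 and Orc1 did not), had a median log2 ratio of -0.07, with 17 lower and 12 higher in RNA-Best (14 and 15 under each of the 3 other scalings). The lower end held Pole, the catalytic subunit of polymerase epsilon, at 0.835 and 2.18 CPM (-1.01, -1.93 to -0.86). Chaf1b, a histone chaperone subunit, was at -0.70 (-1.37 to -0.45) and Pola1, the catalytic subunit of polymerase alpha, at -0.68 (-0.92 to -0.52). The higher end held Gins4 at 0.26 (0.13 to 0.41), Rfc4 of the clamp loader at 0.22 (-0.05 to 0.56) and Prim1 of the primase at 0.17 (-0.03 to 0.40), of which the interval of Gins4 alone lay above 0. In all, 11 of the 29 had intervals below 0 and 2 above it, smaller shares than the 51.2% and 20.2% of all genes. The median level of the 29 was 7.27 CPM against 17.5 CPM over all genes, so the shares are not at equal depth.

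Of 41 other mitotic genes, 38 reached 1 CPM (Kif14, Sgo1 and Ttk did not), with a median log2 ratio of -0.21, 26 lower and 12 higher in RNA-Best (21 and 17 with TMM or DESeq2 factors, 23 and 15 with the total without Prl and Gh). Intervals lay below 0 for 15 of them and above 0 for 1, against 51.2% and 20.2% of all genes, at a median level of 2.71 CPM against 17.5 CPM. The 1 above was Cks1b, a small subunit of cyclin-dependent kinases, at 0.26 (0.08 to 0.48). Also at the upper end, with intervals that included 0, were Spc24 of the kinetochore at 0.32 (-0.07 to 0.99) and Cdc25c, a phosphatase that activates Cdk1, at 0.29 (-0.17 to 1.04). Espl1 (separase, which cuts cohesin) was the lowest at -0.88 (-1.63 to -0.69), then Incenp, the scaffold of the complex that holds Aurkb, at -0.82 (-1.14 to -0.65), and Ncapd2 of condensin at -0.77 (-0.93 to -0.66). Pttg1 (securin), first found in pituitary tumors, was at 20.7 and 21.4 CPM (-0.05, -0.17 to 0.08). The medians of these other lists, -0.07 and -0.21, stood in the reverse order of those of the members, and no member of either was at least 2-fold higher in RNA-Best.

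The G1 cyclins and kinases, which act before S phase, had a median log2 ratio of -0.33, with 6 of 8 lower (5 with TMM or DESeq2 factors, where Ccnd3 changed sign). Ccnd2, a D-type cyclin, was at 143 CPM with RNA-Best and 225 CPM with RNAlater (-0.65, -0.69 to -0.61) and Ccnd1 at 92.6 and 141 CPM (-0.60, -0.66 to -0.55). Cdk6, their kinase with a transcript of 11525 bases, was at 7.73 and 14.2 CPM (-0.84, -1.06 to -0.70), whereas Cdk4, with the same role, was at 144 and 138 CPM (0.06, 0.02 to 0.11). Ccnd3 was at 63.3 and 70.2 CPM (-0.15, -0.22 to -0.08). The genes that act at the start of S phase were Cdk2 at 8.37 and 11.6 CPM (-0.45, -0.66 to -0.29), Ccne2 at 4.38 and 5.14 CPM (-0.21, -0.50 to 0.03) and Ccne1 at 4.86 and 4.76 CPM (0.03, -0.24 to 0.30). Among 9 inhibitors above 1 CPM the median was -0.17, with 6 lower and 3 higher, but Cdkn1a, Cdkn1b and Cdkn1c changed sign under at least 1 other scaling. The retinoblastoma family was lower, with Rb1 at -0.65 (-0.79 to -0.55), Rbl2 at -0.59 (-0.70 to -0.49) and Rbl1 at -0.45 (-0.64 to -0.30). The INK4 inhibitors Cdkn2b, Cdkn2d and Cdkn2c were higher, at 0.28 (0.10 to 0.49), 0.26 (0.18 to 0.35) and 0.20 (0.07 to 0.34). The CIP/KIP inhibitors were nearer the all-gene median, with Cdkn1a (p21) at 87.3 and 98.9 CPM (-0.18, -0.24 to -0.12), Cdkn1b (p27) at 109 and 122 CPM (-0.17, -0.22 to -0.11) and Cdkn1c (p57) at 20.8 and 21.7 CPM (-0.06, -0.19 to 0.07). Cdkn2a stood below 1 CPM at 0.612 and 0.579 CPM. The transcripts of the 3 INK4 genes above 1 CPM have 1390 to 2471 bases and the retinoblastoma family transcripts 4656 to 4925 bases. Of 8 other E2F factors and partners above 1 CPM, 5 were lower and 3 higher with a median of -0.20 (4 and 4 under the other scalings, where E2f6 changed sign), and E2f8 did not reach 1 CPM. The lowest were E2f3 at -0.69 (-0.91 to -0.54), E2f7 at -0.33 (-0.75 to -0.04) and Tfdp2, a dimerization partner, at -0.30 (-0.39 to -0.21), and the highest were E2f2 at 0.16 (-0.04 to 0.39), E2f5 at 0.10 (-0.03 to 0.22) and Tfdp1 at 0.03 (-0.07 to 0.13), whose intervals included 0.

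**Figure D4:**
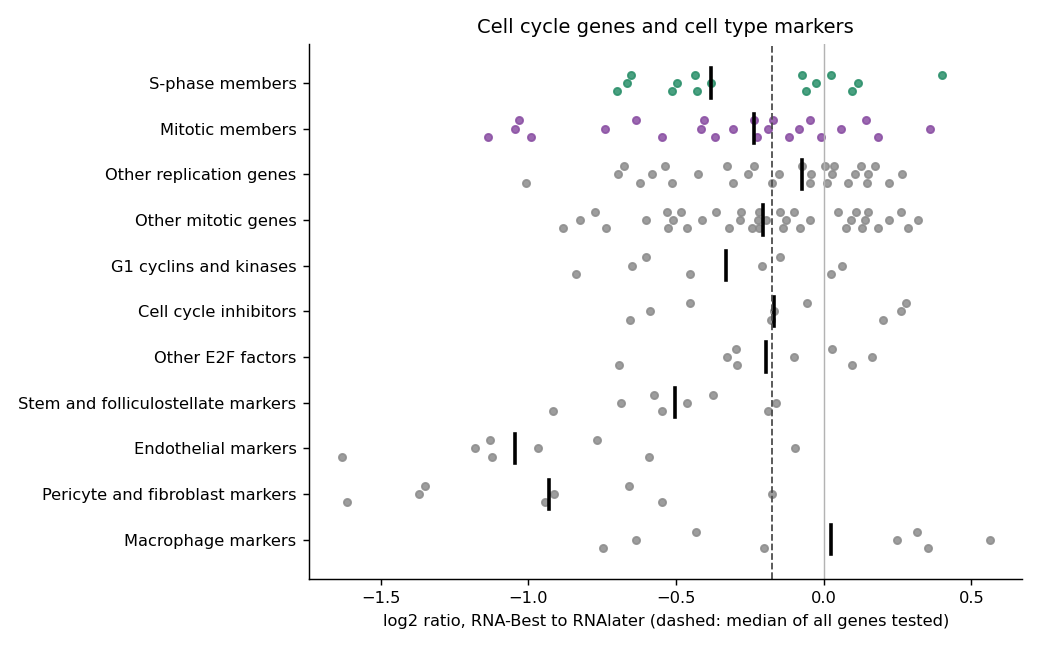
Log2 ratio of RNA-Best to RNAlater for the member lists, the other cell cycle lists and the cell type marker lists except the hormone and erythroid markers. There is 1 point per gene, with the list median as a black bar and the median of all genes as a dashed line. The cell cycle lists straddle the dashed line, the endothelial, pericyte and fibroblast, and stem and folliculostellate markers lie mostly below it, and the macrophage markers lie on both sides.

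Markers of other cells in the gland also differed between the libraries. Of all genes, 67.0% were lower in RNA-Best and 4.99% at least 2-fold lower when scaled by the total. All 8 endothelial markers were lower in RNA-Best (7 under the other scalings, where Esam was slightly higher), with a median log2 ratio of -1.05, 4 of them at least 2-fold lower, and a summed level of 390 CPM with RNA-Best and 756 CPM with RNAlater. All 8 pericyte and fibroblast markers were lower (7 with DESeq2 factors, where Col1a2 was at 0.01), with a median of -0.93 and a summed level of 509 and 665 CPM. All 8 stem and folliculostellate markers were lower, with a median of -0.50 and a summed level of 336 and 501 CPM. The 7 hormone genes were all higher in RNA-Best with a median of 0.45, and the 5 erythroid markers above 1 CPM were all higher with a median of 0.79 and a summed level over the 6 listed genes of 3200 and 1130 CPM. The 8 macrophage markers were divided, 4 lower and 4 higher, at 212 and 198 CPM in sum. The 4 lower ones had longest transcripts of 1230 to 5740 bases and the 4 higher ones of 597 to 1203 bases. The directions of the stem and folliculostellate, hormone, erythroid and macrophage lists held under all 4 scalings. Median transcript lengths were 0.895 kb (hormone), 0.699 kb (erythroid), 2.16 kb (stem and folliculostellate), 3.76 kb (endothelial) and 5.49 kb (pericyte and fibroblast). Below the length trend lay all 8 endothelial, all 8 stem and folliculostellate and 7 of 8 pericyte and fibroblast markers. Above it lay 6 of 7 hormone, all 5 erythroid and 6 of 8 macrophage markers. The part of length in the marker differences was not tested. No marker of these lists had a count of 0 in either library, and the part of these cells in the values of the cell division genes was not tested.

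Division of reads and overlap with other genes each bear on single members. They did not always go together, as Mki67 held fractions without an overlapping exon and Mcm7 had whole counts with overlapping exons. Counts were whole numbers in both libraries for 15 members and held fractions for the other 23. Of the members, 11 share exon positions with another annotated gene, nearly always on the opposite strand, and without a stated strand setting reads of Mcm7, Tk1, Gins2, Ccna2, Kif20a, Prc1, Nusap1 and Cdc20 in the shared positions cannot be told apart from those of their neighbors. The neighbor of Plk1 had 7 and 4 counts, and those of Top2a (a small RNA) and Ube2c (Tnnc2) had 0 in both libraries. Members lie on 16 chromosomes, with 8 on chromosome 2 and 5 on chromosome 11.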

How the data were processed

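Poly(A) RNA of 2 pooled mouse pituitary cell samples was prepared with the Illumina TruSeq LT mRNA kit and sequenced as single reads. Samples were grouped by the stabilizer in their labels. The authors deposited 1 table of estimated counts per Ensembl gene, not normalized, and the submitters' processing notes name STAR 2.5.1b, featureCounts 1.5.0-p1 and mm10. Of the values above 0, 35.4% (RNA-Best) and 34.9% (RNAlater) were not whole, so some reads were counted in part. The option used and the strand setting are not given in the sources used here. The member counts ranged from 51.5 to 3078, and a count of 0 allows a level of up to 0.0556 CPM in the RNA-Best library and 0.0668 CPM in the RNAlater library (3 counts).

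Symbols, coordinates and transcript lengths came from GENCODE M21 on GRCm38, which matched 46488 identifiers (98.8%). Of the members, 28 had the same identifier version. Sgol1 was matched as Sgo1 through RefSeq synonyms. The counts were scaled by the column total, genes averaging 1 CPM or more were tested (16504 genes, with 38 of 38 members), and 0.5 CPM was added before log2 ratios. Estimated counts were rounded for exact 95% intervals. Other scalings used TMM factors (edgeR 4.0.16) and median-of-ratios size factors (DESeq2 1.42.0), both run in R 4.3.3. The study's voom model needs replicates and was not applied, so no test was run. A LOWESS trend (span 0.2, statsmodels 0.14.6) was fitted to the log2 ratio on log10 length over 16443 genes, with Python 3.11.15, numpy 2.4.6, scipy 1.17.1, pandas 2.3.3 and matplotlib 3.10.9. The steps were tested on simulated data.

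The members, the other gene lists and the promoter motifs were chosen with earlier results of these data known. All members are named. Every G1 cyclin, kinase and inhibitor, Pttg1, and the 3 highest and 3 lowest genes of the other replication, mitotic and E2F lists are named too. Other genes are named after their values were seen, as overlapping neighbors of members, as examples of hormone genes, as genes below the filter, or because their sign changed with the scaling. The alternatives changed the scaling (TMM, DESeq2 size factors, the total without Prl and Gh), the added value (0.1 or 1 CPM), the filter (none, or a mean of at least 5 CPM), length (relative to the trend, or counts divided by length) and divided reads (whole counts only). Members up to 5 kb were added as an alternative after the data were seen.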

Additional observations from a re-analysis of the deposited data

How the results depend on the processing

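No paired analysis was possible because there was 1 library per stabilizer, without replicate numbers, and for the same reason no library could be left out. The S-phase median log2 ratio was -0.38. It was -0.24 with TMM scaling, -0.23 with DESeq2 size factors, -0.29 with the total without Prl and Gh, -0.44 with 0.1 CPM added, -0.32 with 1 CPM added, -0.43 over the 5 S-phase members with whole counts and -0.23 over those up to 5 kb. Over members averaging 5 CPM or more (10 S-phase and 5 mitotic) it was -0.067, and relative to the length trend it was -0.023. The mitotic median of -0.24 was -0.12 with TMM scaling, -0.11 with DESeq2 size factors, -0.16 with the total without Prl and Gh, -0.31 with 0.1 CPM added, -0.55 over members averaging 5 CPM or more and -0.11 relative to the length trend. The 3 other scalings moved the all-gene median as well, from -0.18 to between -0.06 and -0.003. The mitotic minus S-phase difference of 0.15 reversed to -0.48 over members averaging 5 CPM or more and to -0.086 relative to the length trend, and was 0.039 over members up to 5 kb. The cause of the first was not tested.

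Of the 15 members left by the filter at 5 CPM, 11 were lower in RNA-Best, and of the 15 with whole counts, 12 were, against 30 of all 38. Of all 38, 23 were lower with TMM or DESeq2 factors and 24 with the total without Prl and Gh. The mitotic share of member counts in RNA-Best and RNAlater was 22.5% and 24.3% for counts divided by length, 39.6% and 41.3% for whole counts, 13.0% and 16.9% for members averaging 5 CPM or more and 25.8% and 26.3% for members up to 5 kb, and was higher in RNAlater in each. Spearman's rho of length and log2 ratio over members reversed to 0.069 with the median annotated length in place of the longest transcript. Relative to the length trend, Kif11 and Rrm1 reversed to 0.047 and 0.063. At the lowest depths, from 51.5 to 74 counts a library for Cdc6, Plk1, Bub1 and Ccnb1, the counting interval of a log2 ratio spanned at least 1 unit.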
